A study of Drosophila melanogaster with 6 samples.

Results

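The transcriptome of the wild type testis was described from the 3 arrays labelled wild type testis, of 6 testis arrays in the series. The other arrays came from Pof mutant males and were not analysed here. Each of the 3 biological replicates held total RNA of 60 testes, dissected from males 0 to 24 h old. The wild type stock was y1 w67c23, so the males carried marker alleles of the X-linked genes yellow and white, as did the mutants of the series. The arrays were Affymetrix Drosophila gene chips, where a group of short probes (a probe set) reports on a transcript, and the deposited level of a probe set is a log2 value made with RMA. An increase of 1 on this scale is a doubling of the signal.

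In the adult testis, germline stem cells sit around a somatic hub and divide to give spermatogonia, which enter a long growth phase as primary spermatocytes. Most genes needed for sperm formation are transcribed in spermatocytes by testis-specific versions of general transcription factors, and many of the transcripts are stored and translated only after meiosis, when round spermatids elongate into sperm. Somatic cyst cells enclose the germ cells, and a sheath with muscle surrounds the organ. Whole testes were used, so a lower level in the mixture cannot tell fewer cells of a type from less RNA per cell.

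Of 18952 probe sets on the array, 13647 name exactly 1 gene, and only these were used. Averaged per gene, they gave 11983 genes, and the current gene table placed 11893 of them on a chromosome arm. Quantile normalization in RMA makes arrays share their distribution nearly by construction, and probe sets differ in how well they bind their transcript. The order of genes is therefore approximate, and levels of different genes are not turned into ratios.

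Replicate 2 stood apart from the others. Across the 7510 genes with a mean level of at least 6, the Pearson correlation was 0.992 between replicates 1 and 3, 0.950 between 1 and 2, and 0.928 between 2 and 3. These are correlations across genes, which are not independent replicates. The shares at 6, the spread between arrays and the comparison of chromosomes are therefore also given without it.

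Most genes were measured above the weak range. A level of at least 6, the minimum used in the study, was reached by 58.8% of the single-gene probe sets (8028), with 58.9%, 57.5% and 59.2% on replicates 1 to 3 and 59.1% without replicate 2. Counted by gene, 62.7% reached it (63.0% without replicate 2). The median gene level was 7.01, with array medians of 6.99, 6.91 and 7.04. The levels formed a peak just under 5 and a long shoulder to the right of it. Below 5 lay 2293 genes, from 5 to 6 another 2180, and at 13 or above only 105 genes, or 0.876%.

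**Figure D1:**
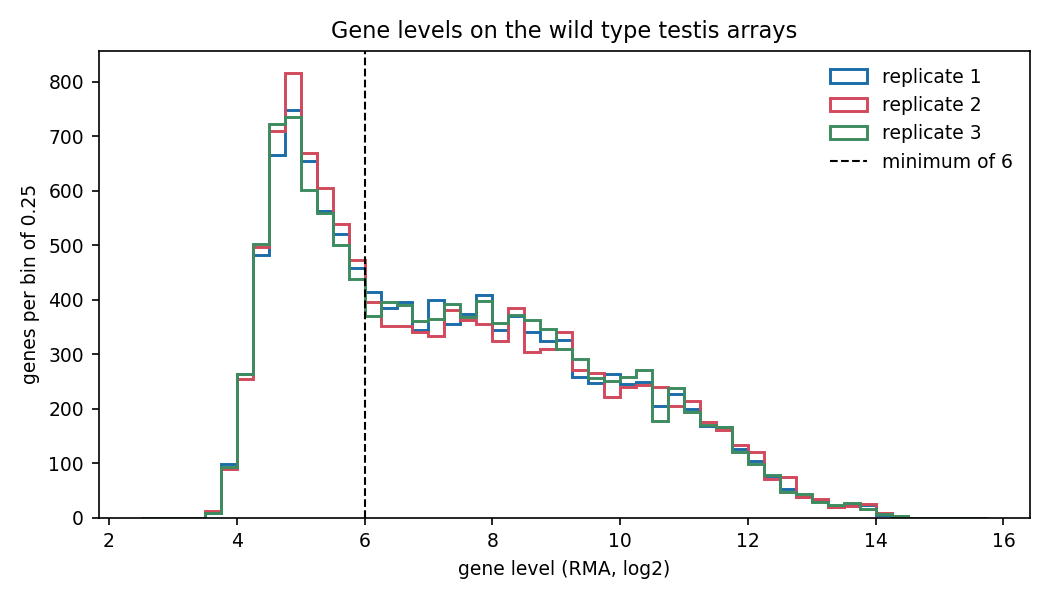
Number of genes in bins of 0.25 (vertical axis) by gene level on the RMA log2 scale (horizontal axis), with a line for each of the 3 wild type arrays and a dashed line at 6. The 3 lines nearly coincide, with medians of 6.99, 6.91 and 7.04, and 62.7% of genes have a mean at or to the right of the dashed line.

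The side of 6 on which a gene fell was the same on all arrays for most genes. At least 6 on every array were 7107 genes, below 6 on every array 4202, and 674 genes lay on both sides. Replicate 2 alone was below 6 in 294 of these 674 genes, whereas replicate 1 alone was below 6 in 35 and replicate 3 alone in 75. A mean within 0.25 of the minimum was found for 870 genes, so the call of being above it depends on small differences there. It also depends on the probe set. The 1094 genes with several probe sets had a median distance of 1.16 between the highest and the lowest of them (quartiles 0.49 and 2.44), and 414 of these genes (37.8%) had probe sets on both sides of 6.

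Among the most abundant transcripts with a known role, genes of seminal fluid proteins and of sperm were found. The highest level was that of CG18628, at 14.46, 14.49 and 14.47 on replicates 1 to 3. It was followed by Spn77Bb, which encodes a serpin, a family of serine protease inhibitors, at 14.28, 14.17 and 14.30. The distance of 0.22 between them was larger than their pooled SD of 0.049, and CG18628 was above Spn77Bb on every array.

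Members of the lists for the accessory gland and the ejaculatory duct and bulb, which make seminal fluid, were 6 of the 20 highest genes. Acp98AB, an accessory gland gene, was measured at 14.27, 14.11 and 14.28. Dup99B, which encodes an ejaculatory duct peptide related to the sex peptide, was measured at 14.02, 13.89 and 14.03. Acp36DE, whose product helps females to store sperm, was measured at 13.93, 13.75 and 14.02. The others were Mst57Da (mean 14.04), Acp53C14b (14.04) and Acp53C14a (13.96), which are also expressed in the accessory gland. All 6 had their lowest value on replicate 2, beside 29.6% of all genes, as did Spn77Bb, which is on neither list.

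Sperm genes of the Mst family, whose products with Cys-Gly-Pro repeats are part of the sperm tail, held 3 of the 20 places. Mst98Ca was at 13.88, 13.93 and 13.86, Mst84Db at 13.81, 13.85 and 13.89, and Mst84Da at 13.81, 13.86 and 13.86. The values of these genes overlapped between genes and hardly differed between arrays. MtnA, which encodes a metal-binding metallothionein, was at 14.20, 14.16 and 14.25. The other 9 of the 20 genes are known by a CG number alone, as are 45 of the 100 highest genes and 43.6% of all genes: CG18628, CG10252 (14.10), CG12699 (14.03), CG9016 (14.00), CG17376 (13.99), CG31740 (13.99), CG8701 (13.97), CG15219 (13.93) and CG9920 (13.85).

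The 20 genes lay within 0.63 of each other, and the SD of a gene over the arrays ranged from 0.016 to 0.14. Of the 19 pairs of neighbours in the order, 16 differed by less than their pooled SD. The exceptions were CG18628 over Spn77Bb, MtnA over CG10252 and Mst98Ca over Mst84Db. Without replicate 2, 19 of the 20 genes stayed among the 20 highest.

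**Figure D2:**
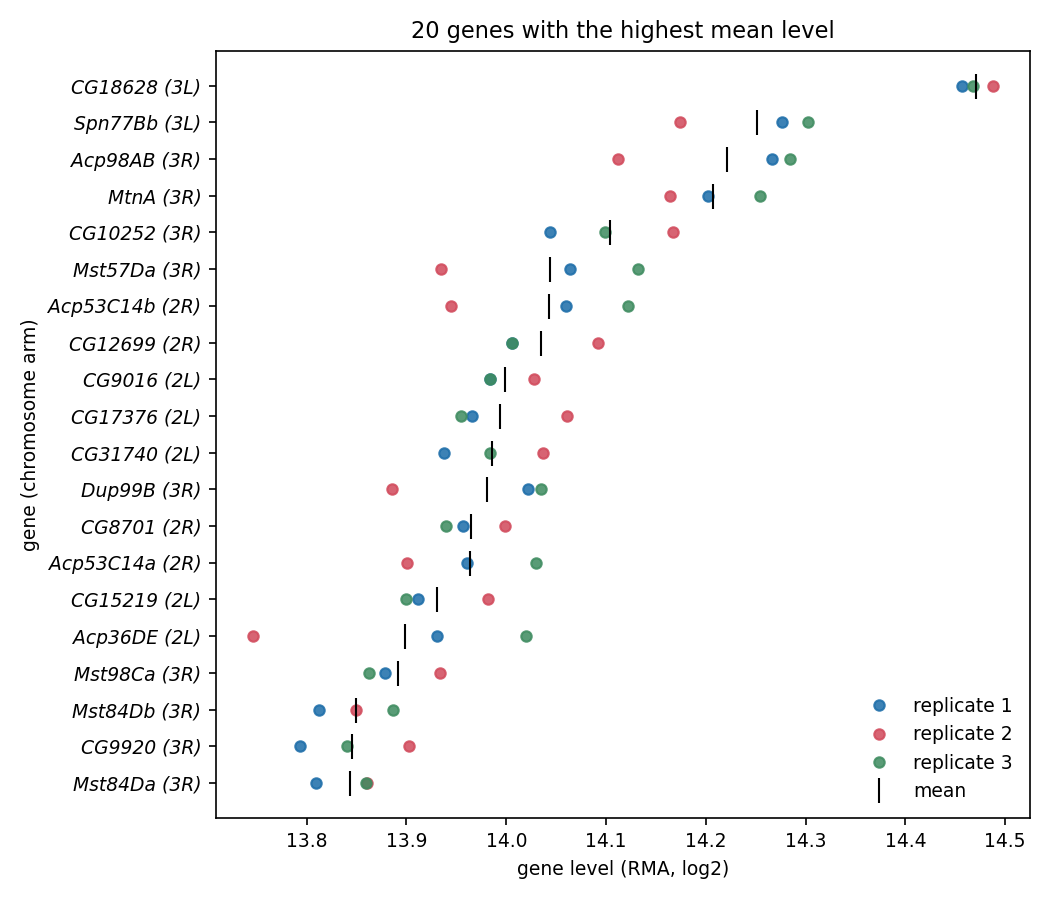
Level on the RMA log2 scale (horizontal axis) of the 20 genes with the highest mean (vertical axis, chromosome arm in brackets), with a point for each replicate and a tick for the mean of 3 arrays. The axis does not start at 0. All 20 genes lie between 13.7 and 14.5. Replicate 2 is the lowest array for 8 of them and the highest for 11, beside 29.6% and 54% of all genes.

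Several of the most abundant genes sat next to each other in the genome. Among the 100 highest genes, 22 formed 9 runs of direct neighbours among the genes measured. The count was taken after the values had been seen, with no share over all genes to set beside it. Whether probe sets of related neighbours share signal was not tested. The longest run was the sperm tail cluster of Mst84Dd, Mst84Dc, Mst84Db and Mst84Da on 3R, with means from 13.17 to 13.85. A run of 3 on 2R held the accessory gland genes Acp53C14a, Acp53C14b and Acp53Ea (13.84 to 14.04), and another on 2R held CG18449, CG2127 and CG8701 (13.10 to 13.97). The pairs included Spn77Bb and Spn77Bc on 3L, and on 3R Mst57Dc with Mst57Da and ocn with janB, the last of which are transcribed in the male germline.

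The lists of germline genes differed in median level. The medians over list members were 7.21 for germline stem cells and spermatogonia, 8.22 for primary spermatocyte regulators, 10.72 for post-meiotic cup and comet genes and 13.07 for spermatid and sperm genes, beside 7.01 over all genes. The lists hold different genes, read by different probe sets, so these medians describe the lists, were not tested against each other and give no order of the stages.

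Of the early germline list, 7 of 12 measured genes reached 6, a share near the 62.7% of all genes. The highest was bgcn, which acts with bam in the early germline, at 8.97, 9.41 and 9.01. The piRNA pathway genes aub (7.78), AGO3 (7.42), krimp (7.41) and spn-E (7.35) were in the middle of the range, as were tut (7.46), which encodes a partner of bam and bgcn, and mei-P26 (7.06). Below 6 on every array was bam itself, at 5.20, 5.50 and 5.19. The germline gap junction gene zpg (5.38) and the piRNA pathway gene tej (5.40) were also below 6, and ovo (4.12) and otu (4.02), known for their role in the female germline, were near the bottom of the scale.

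Among regulators of primary spermatocytes, 13 of 16 measured genes (81.2%) reached 6, beside 62.7% of all genes. The highest of them was fest, with 12.51, 12.71 and 12.57. Rbp4, which encodes an RNA-binding protein that controls translation in spermatocytes, was at 10.02, 10.09 and 10.02. The testis-specific TAFs, which replace subunits of the general factor TFIID, were led by sa at 9.90, 10.22 and 9.88, with means of 9.31 (nht), 8.23 (mia) and 8.20 (can) for the others measured. Subunits of the testis meiotic arrest complex spread more widely, with topi at 9.23, tomb at 8.32, vis at 7.79 and comr at 6.98, but aly at 4.82 and achi at 4.53. The genes kmg (8.61) and dany (7.46) were above 6, as was bol (6.81), a translational regulator of meiosis. The Cdc25 phosphatase gene of meiosis, twe, was at 5.20. The 3 genes under 6 were below it on every array.

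Of the genes of spermatids and sperm, 22 of 23 measured genes were at 6 or above, beside 62.7% of all genes, and 15 were at 12 or above. All 4 Mst84D genes, Mst87F (13.79), Mst98Ca and Mst98Cb (12.83) were among them. The chromatin proteins that replace histones in the sperm nucleus were also high. Mst77F was at 13.78, 13.77 and 13.65, ProtA at 12.34, 12.50 and 12.41, and ProtB at 11.90, 11.95 and 11.93. Sperm leucyl aminopeptidases ranged from S-Lap7 (13.64) and S-Lap8 (13.47) through S-Lap2 (13.07) to S-Lap5 (11.03). Lower members were dj, for a protein of the sperm tail, at 10.86, and fzo, the mitofusin that fuses mitochondria in spermatids, at 10.09. The only member below 6 was Mst36Fb (4.72, 4.57 and 4.67), while its relative Mst36Fa was at 10.48.

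Cup and comet genes are transcribed after meiosis, and their transcripts gather at the ends of elongating spermatids. Of those measured, 16 of 16 reached 6, beside 62.7% of all genes. Among those counted, w-cup (12.43), boly (12.37), schuy (11.79) and c-cup (11.75) were at the upper end and r-cup (7.26) and s-cup (6.44) at the lower. Replicate 2 was the highest array in 15 of the 16, and w-cup, at 12.52, 12.43 and 12.35, was highest on replicate 1. Over all genes, replicate 2 was the highest array in 54% and the lowest in 29.6%.

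Testis paralogs of housekeeping genes were all at 6 or above, 24 of 24, beside 62.7% of all genes, with a median of 10.60. The beta tubulin of spermatocytes and sperm tails, betaTub85D, was at 13.72, 13.75 and 13.68. The mitochondrial chaperones Hsp60C (13.40) and Hsp60B (12.48), the translation factors eIF4E3 (12.94) and eIF4G2 (11.83), the mitochondrial import gene tomboy20 (12.52) and the outer membrane channel gene Porin2 (12.60) were among the highest. Testis versions of proteasome subunits ranged from Prosalpha4T1 (9.15) to Prosalpha6T (11.81). Their housekeeping partners were at 6 or above in 16 of 16 cases, beside the same 62.7%, with a median of 10.65. The array means of the testis paralogs were 10.99, 11.15 and 10.91, and replicate 2 was the highest array in 23 of the 24. Partner means were 10.39, 10.35 and 10.48, with replicate 2 lowest in 7 of the 16 genes and highest in 4. Over all genes it was highest in 54% and lowest in 29.6%. The partner with the largest SD, ATPsynbeta, was at 10.60, 9.91 and 10.84 and lowered the partner mean of replicate 2 the most. The 40 genes of cytosolic ribosomal proteins measured were all at 6 or above, beside 62.7% of all genes, with a median of 12.34.

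**Figure D3:**
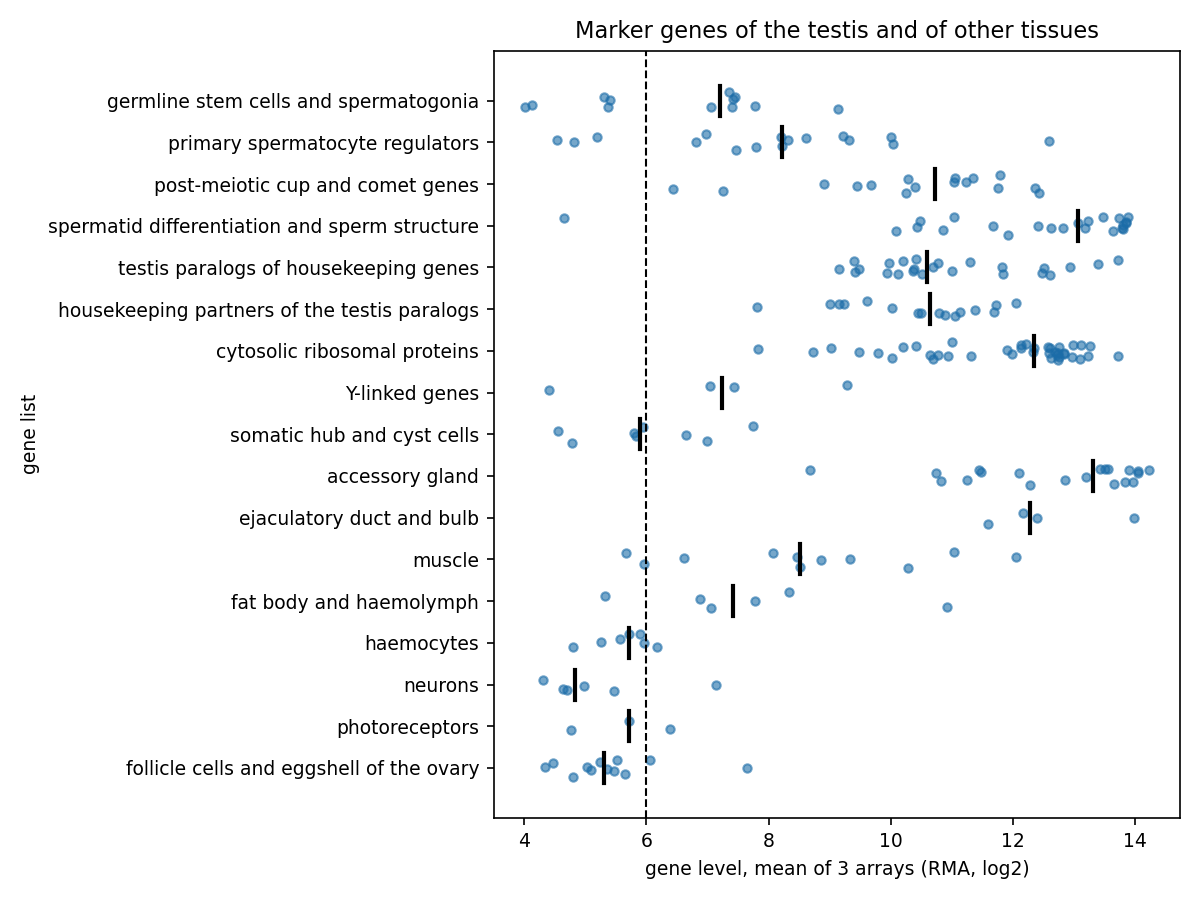
Mean level over 3 arrays on the RMA log2 scale (horizontal axis) of each measured member of the gene lists (vertical axis), with a black bar at the median and a dashed line at 6. The medians of the germline lists run from 7.21 (germline stem cells and spermatogonia) to 13.07 (spermatid and sperm genes), and the accessory gland list has the highest median, 13.31.

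On the Y chromosome, which carries genes needed for sperm function, 4 genes were measured. The phosphatase gene Pp1-Y2 was at 9.34, 9.57 and 8.96, ORY at 7.37, 7.71 and 7.22, and Ppr-Y at 7.13, 7.24 and 6.79. The gene for an axonemal dynein heavy chain, kl-2, was at 4.36, 4.53 and 4.34, so 3 of the 4 were at least 6, too few genes to set beside the 62.7% of all genes. All 4 were highest on replicate 2, as were 54% of all genes, so this count too is small.

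Markers of somatic cells of the testis were low. Of 8 measured markers of the hub and cyst cells, 3 (37.5%) reached 6, beside 62.7% of all genes, with a median of 5.89. CadN, an adhesion molecule of the hub, was at 7.76, 7.97 and 7.50, and the transcription regulator genes so (6.86 to 7.14 over the arrays) and eya (mean 6.65), which act in cyst cells, were also above 6. The hub ligand gene upd1 was at 4.79, the cyst cell factor gene tj at 5.83 and zfh1 at 4.55. Muscle genes were higher, 9 of 11 (81.8%) at 6 or above with a median of 8.51, and Act87E was at 12.01, 11.94 and 12.19. This list holds muscle genes in general and cannot tell muscle of the testis sheath from other muscle. Replicate 3 had the highest mean over the muscle list, 8.98, beside 8.50 and 8.38 on replicates 1 and 2.

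Genes of other male reproductive organs gave strong signals. All 20 measured accessory gland genes reached 6, beside 62.7% of all genes. Their median was 13.31, with a range from 8.68 (Acp95EF) to 14.22 (Acp98AB). SP, which encodes the sex peptide that changes the behaviour of mated females, was at 13.54, 13.37 and 13.62, and Acp26Aa, the ovulation-stimulating ovulin, at 13.51, 13.19 and 13.57. All 20 were lowest on replicate 2, beside 29.6% of all genes. The list mean of replicate 2 was 12.47, beside 12.70 and 12.78 on replicates 1 and 3. All 4 genes of the ejaculatory duct and bulb were also lowest on replicate 2, with list means of 12.68, 11.87 and 13.05. The largest difference among them was that of EbpII, a protein gene of the ejaculatory bulb, at 12.82, 10.91 and 13.47. The labels name testes alone, and how these transcripts came to be in the RNA was not tested.

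Markers of other cell types were mostly low. The fat body and haemolymph list had 5 of 6 genes at 6 or above, beside 62.7% of all genes, led by the lipoprotein gene apolpp (10.91). Only 1 of 7 haemocyte genes (PPO2, 6.18), 1 of 6 neuronal genes (nSyb, 7.13) and 1 of 3 photoreceptor genes (Arr1, 6.39) reached 6, and the neuronal marker elav was at 4.64. Of 12 genes of the ovarian follicle and eggshell, 2 reached 6, Cp15 (7.65) and Cp18 (6.06). The median levels of these last 4 lists lay between 4.84 and 5.72, all below the minimum.

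Genes on the X chromosome and on chromosome 4 had lower levels than genes on the major autosomes. The mean over genes was 6.97 on X (1873 genes, 95% interval over genes 6.88 to 7.07) and 6.36 on chromosome 4 (65 genes, 5.83 to 6.89), against 7.44 on the major autosomes (9951 genes, 7.39 to 7.49). Among the major autosomes, 2L was highest at 7.66 (7.56 to 7.76), followed by 2R at 7.43, 3R at 7.35 and 3L at 7.34. Since genes cannot stand in for replicates, the intervals describe the precision of a mean over genes and not the error between arrays. Single genes spread far more widely, with quartiles of 5.18 and 8.45 on X.

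The difference between X and the major autosomes was -0.46 on each of replicates 1 and 2 and -0.47 on replicate 3 (SD 0.0074, n = 3; 95% interval over genes -0.57 to -0.36). For chromosome 4 it was -1.09, -1.08 and -1.06 (mean -1.08, SD 0.015, n = 3; -1.60 to -0.56). The same probe sets enter every quantile-normalized array, so the SD and the shared sign cover only the spread between arrays, and not the error of setting different probe sets against each other. A two-sided exact sign-flip permutation test over arrays gave p = 0.25 for each, the smallest value that 3 arrays allow. Without replicate 2 the differences were -0.47 and -1.08. The gap was wider between medians, at -0.63 for X and -1.55 for chromosome 4, and among genes at 6 or above only, the difference of chromosome 4 was -0.56.

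The share of genes at or above a level was lower on X and on chromosome 4 than on the major autosomes at 6, 8, 10 and 12. At 6 or above were 57.5% of X genes, 47.7% of chromosome 4 genes and 64.0% of genes on the major autosomes. At 10 or above these shares were 11.5%, 7.69% and 17.5%, and at 12 or above 1.28%, 0 and 3.63%. Without replicate 2 the shares at 6 were 57.9%, 47.7% and 64.3%, and those at 12 were 1.33%, 0 and 3.47%. On 2L, 67.3% of genes were at 6 or above and 4.26% at 12 or above. Only 2 of the 100 most abundant genes were on X, which carries 15.6% of the genes measured, beside 29 on 2L, 26 on 2R, 14 on 3L and 28 on 3R. Of the 500 most abundant genes, 31 were on X and 0 on chromosome 4. With the genes of the accessory gland and of the ejaculatory duct and bulb left out, 4 of the 100 highest genes were on X, and without replicate 2 the number was 3.

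**Figure D4:**
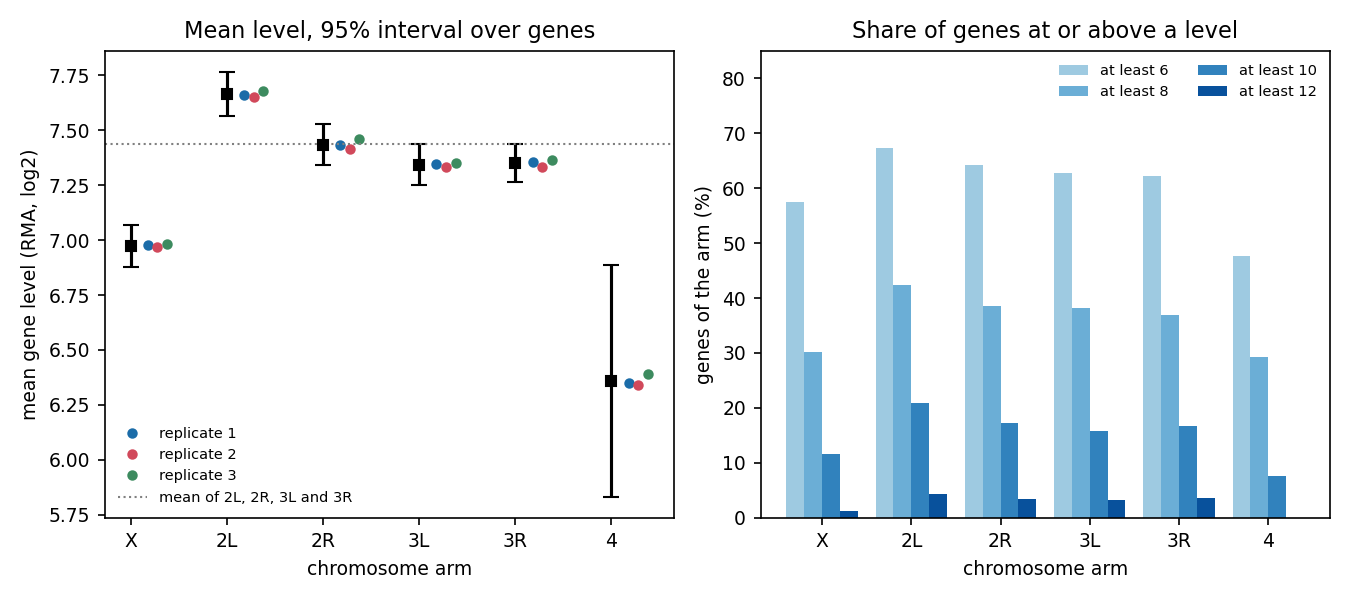
Left, mean gene level on the RMA log2 scale (vertical axis, not starting at 0) by chromosome arm (horizontal axis), as a square with its 95% interval over genes, with the mean on each array as coloured points and the mean of the major autosomes, 7.44, as a dotted line. Right, percent of the genes of each arm (vertical axis) at or above levels of 6, 8, 10 and 12, with X and chromosome 4 below every major arm at each level, and 0 genes of chromosome 4 at 12 or above.

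The highest X gene, CG1394, was at 13.68, 13.81 and 13.65, and TrxT, a thioredoxin of the male germline, at 13.26, 13.37 and 13.25. CG12470 followed with a mean of 13.04. These 3 genes had their highest value on replicate 2, as did 62.1% of genes at 6 or above, so the count says little about X. On chromosome 4 the highest gene was apolpp, at 10.99, 10.80 and 10.95. ATPsynbeta, a subunit of the mitochondrial ATP synthase, was at 10.60, 9.91 and 10.84, and Rad23, which delivers ubiquitylated proteins to the proteasome, at 10.40, 10.45 and 10.38. ATPsynbeta had an SD of 0.48, and Rad23 one of 0.038.

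On a list of regulators of X, of chromosome 4 and of sex determination, Pof had the highest level, at 12.98, 13.06 and 12.89. Its protein binds chromosome 4. Of the 10 measured genes of this list, 5 were at 6 or above, a share below the 62.7% of all genes. The count includes the sex determination genes tra (7.72), which reached 6, and Sxl (4.56) and dsx (4.40), which did not. Of the male-specific lethal genes, whose complex raises transcription of the male X in somatic cells, msl-3 (6.43) and mof (6.10) reached 6, and msl-1 (4.90), mle (4.61) and msl-2 (4.18) did not. The SD between arrays of a gene of the list was at most 0.18.

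Most genes differed little between the arrays. Over genes at 6 or above, the SD had a median of 0.15 with quartiles of 0.094 and 0.22, and 6093 of the 7510 genes (81.1%) were under 0.25. Among genes at 6 or above, the spread was smallest at the top of the scale. The median SD was 0.079 for genes at 13 or above and 0.17 for genes from 8 to 9. Genes below 5 had a smaller one, 0.064. A second, small set of genes spread widely, 217 of them with an SD above 1. Without replicate 2 the median SD of these 7510 genes was 0.071, and 7090 of them (94.4%) were under 0.25 and 33 above 1. A difference of more than 1 was found in 80 genes between replicates 1 and 3, in 296 between 1 and 2, and in 406 between 2 and 3.

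These differences had a direction. Replicate 2 lay more than 1 below both other arrays in 295 genes (2.46% of all genes) and more than 1 above them in 2, CG34217 and Act88F. In these 295 genes the median level was 5.80 on replicate 2 and 8.59 on the others, and 161 of them were under 6 on replicate 2. Replicates 1 and 3 were in 0 genes more than 1 below both others, and more than 1 above them in 14 and 81 genes. By arm, the 295 genes were 1.92% of X genes, 2.95% of 2L, 2.51% of 2R, 2.39% of 3L, 2.59% of 3R and 0 of the 65 genes of chromosome 4.

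The 10 most variable genes were all high on replicates 1 and 3 and low on replicate 2. CG14292 was at 13.60, 6.55 and 13.62, the largest SD of the data set at 4.08. Mur18B, which encodes a mucin-related protein, was at 13.25, 6.90 and 13.36. Muc11A, a mucin gene, was at 11.09, 5.56 and 11.23. The others were CG42807, CG13309, CG11892, CG10514, CG8997, CG3168 and Scp2, with 4.92 to 6.34 on replicate 2 and 9.96 to 12.19 on the others.

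Families of digestive enzymes showed the same pattern. They were picked by symbol after the values had been seen, so their counts are a description beside the 2.46% of all genes. Replicate 2 was more than 1 below both other arrays in 8 of 13 Jonah serine proteases (61.5%), which are proteases of the gut, and their array means were 7.56, 5.16 and 7.07. It was so in 6 of 9 trypsins (array means 8.02, 5.55 and 8.37), where alphaTry was at 10.52, 5.80 and 10.88, and in 4 of 10 maltases, which split sugars (array means 6.81, 5.44 and 8.18). On Jon65Aiv the values were 10.76, 4.90 and 9.89, and on Mal-A1 8.27, 4.75 and 10.90. Replicates 1 and 3 also differed from each other here, since replicate 3 was more than 1 above both others in 7 of the 10 maltases and replicate 1 in 5 of the 13 Jonah proteases.

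Genes of other families were lower on replicate 2 as well. Among 8 organic anion transporters, Oatp58Da, Oatp58Db and Oatp58Dc were lower by more than 1 on replicate 2, and Oatp58Dc was at 9.55, 5.21 and 9.74. The metallothioneins MtnB (9.63, 5.34 and 9.12), MtnC (11.06, 7.38 and 11.60) and MtnD were lower by more than 1 on replicate 2. MtnA was also lowest there, but by less than 1, at 14.20, 14.16 and 14.25. Of 81 cytochrome P450 genes 11 (13.6%) were lower by more than 1, and of 66 cuticular protein genes 5 (7.58%). The 1 of 47 odorant-binding protein genes (2.13%) was near the 2.46% of all genes.

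Replicate 2 lay more than 1 below the others in 0 of the 67 measured genes of the 4 germline stage lists. Among the 48 measured genes of accessory gland, ejaculatory duct and bulb, muscle, fat body and haemocytes it did so in 1, EbpII. Beside 2.46% of all genes, both counts are near the background and say nothing about these lists. Replicate 2 was the highest array in 10 of 12 genes of the early germline, 14 of 16 of primary spermatocytes, 15 of 16 cup and comet genes and 16 of 23 spermatid and sperm genes, beside 54% of all genes and 62.1% of genes at 6 or above. Genes of accessory gland, muscle and fat body were lowest on it in 20 of 20, 8 of 11 and 5 of 6 cases, beside 29.6% of all genes. Replicate 2 was also lowest in 24 of 40 cytosolic ribosomal protein genes (60%) and 7 of 16 housekeeping partners (43.8%), beside the same 29.6%. It was highest in 4 of 6 neuronal and 2 of 3 photoreceptor genes, beside 54% of all genes. Of these lists, 5 of 6 and 2 of 3 genes had means below 6, so these small counts say little about them. The part that the make-up of the dissected tissue played in the difference of replicate 2 was not tested.

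**Figure D5:**
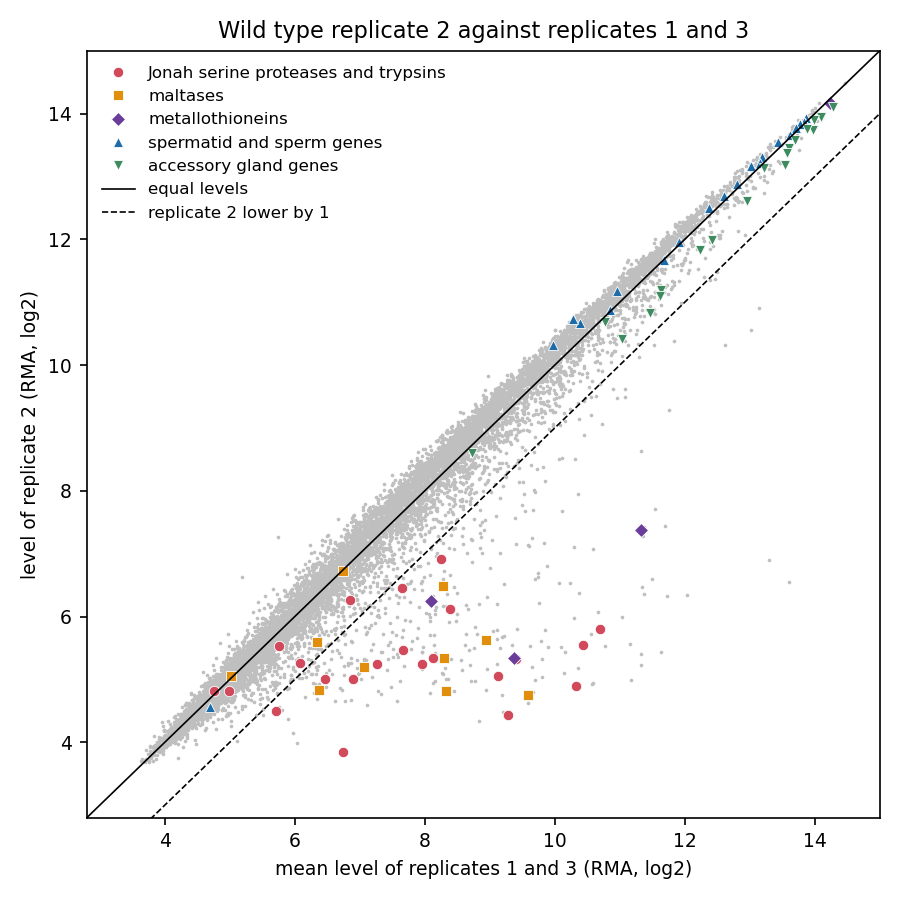
Level of each gene on replicate 2 (vertical axis) against its mean on replicates 1 and 3 (horizontal axis), both on the RMA log2 scale, with gene groups in colour, a solid line of equal levels and a dashed line where replicate 2 is lower by 1. Spermatid and sperm genes lie along the solid line, and most Jonah proteases and trypsins and 3 of the 4 metallothioneins lie below the dashed line, between 3.8 and 7.4 on replicate 2.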

How the data were processed

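Total RNA of dissected wild type testes was isolated with TRIzol and an RNeasy column, labelled with biotin and hybridised to the Affymetrix Drosophila gene chip version 2 by the authors. The deposited values are log2 levels that the authors made with RMA (background subtraction, quantile normalization over arrays and summary per probe set). RMA's version and the build of the array design are not given in the sources used here, and coordinates are therefore left out.

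Probe sets that name several genes (402) or none (4903) in the annotation of the array were left out. Of the 13647 others, 13544 matched the RefSeq gene table of Release 6 by gene identifier, which gave the chromosome arm and the order of genes, with no arm for 90 genes. Several probe sets of a gene were replaced by the mean of their log2 levels. The minimum of 6 follows the study, and no values were removed by it except where stated. Mean and SD were taken over 3 arrays, and their number limits the precision.

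X and chromosome 4 were compared with the major autosomes (2L, 2R, 3L and 3R) per array, with a two-sided exact sign-flip permutation test. The named genes were the 20 highest, the 3 highest of each arm, the 10 with the largest SD among genes of at least 6, and members of the lists. The gene members and lists were chosen with earlier results of these data known, and the enzyme families and neighbouring genes after the values had been seen. Also after that, 3 lists were corrected: sowah was removed from, and w-cup, m-cup and h-cup added to, the cup and comet genes, and RpS28b and RpS28a were removed from the testis paralogs and their partners. List members that matched no measured gene were not analysed here. Python 3.11.15 with pandas 2.3.3, numpy 2.4.6, scipy 1.17.1 and matplotlib 3.10.9 was used, and the code was tested on simulated data. Alternatives were the minimum, the probe sets used, the average over genes and leaving out each array.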

Additional observations from a re-analysis of the deposited data

How the results depend on the processing

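The share of probe sets at 6 or above moved from 58.8% to 48.0% over all probe sets of the array, 62.7% when counted by gene, 55.7% when every array had to reach 6, 57.5% without probe sets that may bind several transcripts, 77.3% at a minimum of 5 and 46.8% at a minimum of 7. Leaving out each array gave 58.4 to 59.1%. The difference of X from the major autosomes stayed negative under all 9 alternatives run, from -0.41 (genes of at least 6) to -0.77 (linear scale), as did that of chromosome 4, from -0.56 to -1.55. X held 5.5% of the 200 highest genes. With the accessory gland and ejaculatory duct and bulb genes left out, an alternative added after seeing the data, it held 4 of the 100 highest, and with each array left out 2 to 3. The median SD ranged from 0.071 (without replicate 2) to 0.18 with an array left out, and these values rest on 2 arrays. Of 80 levels of the 20 highest genes under the alternatives, 79 moved by less than the SD between arrays. That count was fixed in advance and says nothing about stability, since leaving out 1 of 3 arrays always moves a mean by less than the SD. Taking the highest probe set could change only CG17376, the only one of them with several probe sets. It rose to 14.26 with the highest of its 3 probe sets. As first written, before 3 lists were corrected, the cup and comet list had 13 of 14 genes at 6 or above (median 10.35), the testis paralogs 25 of 25 (10.69) and their partners 17 of 17 (10.50). No paired analysis was possible because only 1 group, the wild type arrays, entered each result. RMA compresses differences near the top and bottom of the scale, so the order at the top and levels below 6 are the least certain.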

Other observations

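Probe sets outside the single-gene set also gave signal on the wild type arrays. Of 4720 probe sets that name no gene and are not controls, 738 (15.6%) had a mean of at least 6 and 75 of at least 12. The highest of them was at 14.14, 13.98 and 14.21 on replicates 1 to 3 (mean 14.11), which would place it among the 20 highest genes. Of the 402 probe sets that name several genes, 281 reached 6, and the highest mean among them, 14.64, was above that of CG18628 (14.47).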
